A study of Mus musculus with 10 samples.

Results

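The 9 gene rows described here hold RNA that is not expected to be read into protein. They are 7 long noncoding RNAs (Malat1, Neat1, Meg3, Rian, Mirg, Miat and Snhg11), the ribosomal RNA precursor row Rn45s and the microRNA row Mir6236. All 9 symbols had a row among the 32531 gene rows of the deposited tables. They were picked by name with their levels across sides and replicate numbers already known, so those levels are a description and carry no test. Adult Chat-TRAP mice (line DW167) were used, a BAC transgenic line in which the Chat (choline acetyltransferase) transgene carries EGFP fused to the ribosomal protein Rpl10a. Only cells with an active transgene hold tagged ribosomes. Left and right medial habenula were dissected and homogenised apart, and tagged polysomes were captured on anti-EGFP beads, a method called translating ribosome affinity purification (TRAP). The 10 libraries, 5 per side, were all pull-downs of this 1 line with no treatment named. Left and right replicates of the same number carry the same sequencing lane number, except for replicate 1, so lane and replicate number cannot be told apart in the others. No label says whether each library is a separate animal, so p-values measure the spread between these libraries, which may be technical.

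Long noncoding RNAs carry no long open reading frame, and many stay in the nucleus, away from ribosomes. Malat1 sits in nuclear speckles and Neat1 is the scaffold of paraspeckles. Meg3, Rian and Mirg are transcribed in 1 direction from the maternal copy of the imprinted Dlk1-Dio3 locus, and Rian and Mirg host small nucleolar RNAs and microRNAs. Miat (Gomafu) is a nuclear RNA of neurons, and Snhg11 is a host gene of small nucleolar RNA. The ribosomal RNA precursor is cut into the RNAs of both ribosomal subunits, so ribosomal RNA belongs to any captured ribosome as well as to untagged ones.

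Gene reads summed to between 42488448 and 67942836 per library. All 12 habenular marker genes had reads in every library, and their summed level was 6768 to 10979 in left libraries and 5217 to 11110 in right ones, in CPM (counts per 1e6 reads in gene rows). The 10 thalamic neuron markers summed to 2061 to 4522 CPM (left) and 2145 to 4023 CPM (right), with Gbx2 at 0 in right replicate 1. Glial and vascular markers differed more between libraries. The 15 astrocyte markers summed to 127 to 1870 CPM (left) and 129 to 1732 CPM (right), and the 12 oligodendrocyte markers to 106 to 1730 and 107 to 1761 CPM, with none at 0. The 10 microglia markers summed to 8.19 to 37.4 CPM (left) and 6.77 to 34.4 CPM (right; Aif1 at 0 in some libraries), and the 12 vascular markers to 4.93 to 35.6 and 6.87 to 45.0 CPM (Cldn5 and Cdh5 at 0 in some). Replicates 1 and 5 of both sides held the low ends of the astrocyte and oligodendrocyte ranges. These 4 libraries also resembled each other. Pairs of libraries were compared by a chi-square of counts over genes within a fixed range of summed reads (2675 genes for right replicates 1 and 5). Right replicates 1 and 5 gave 1.31 per degree of freedom and left replicates 1 and 5 gave 2.57, where sampling noise gives about 1. The next closest of the other pairs gave 4.53. Both of these replicate 1 and 5 pairs are of 1 side. Both pairs differed by more than sampling noise and were kept as separate libraries, but they may not be independent.

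The sequence of Mir6236 is shown because this row held nearly all reads of microRNA rows. The row lies on chromosome 9 of GRCm38 (mm10), from 110281287 to 110281409 on the plus strand. Its mature sequence in RefSeq (GRCm38.p6), with the seed (bases 2 to 8) in capitals, is 78.9% G and C:
mmu-miR-6236: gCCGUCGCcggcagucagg

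The microRNA hairpins inside Rian and Mirg are shown because they show which mature RNAs these hosts encode. Rian held 3 such rows, all of which reached 5 reads in a library, and Mirg held 10, of which 5 did. The mature forms below come from RefSeq (GRCm38.p6, chromosome 12, plus strand) with seeds in capitals. The first pair, both from Mirg, share the seed GGUUGCC, and the others each have their own seed:
mmu-miR-453: aGGUUGCCucauagugagcuugca
mmu-miR-496a-5p: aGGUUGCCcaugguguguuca
mmu-miR-377-3p: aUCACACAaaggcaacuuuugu
mmu-miR-3072-5p: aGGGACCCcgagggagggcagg
mmu-miR-341-5p: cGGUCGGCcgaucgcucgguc
mmu-miR-1188-5p: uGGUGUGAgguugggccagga

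The promoter of Meg3 is shown because Meg3 lies first among 3 rows of 1 locus that were low in the same libraries. The window chr12:109540746-109541045 (GRCm38.p6, plus strand, RefSeq) holds 250 bases before the start and 50 after it. Capitals mark matches on either strand to the CRE (TGACGTCA), the CCAAT box (CCAAT) and the TATA box (TATAAA), the last of which matched on both strands in 1 overlapping run:
Meg3: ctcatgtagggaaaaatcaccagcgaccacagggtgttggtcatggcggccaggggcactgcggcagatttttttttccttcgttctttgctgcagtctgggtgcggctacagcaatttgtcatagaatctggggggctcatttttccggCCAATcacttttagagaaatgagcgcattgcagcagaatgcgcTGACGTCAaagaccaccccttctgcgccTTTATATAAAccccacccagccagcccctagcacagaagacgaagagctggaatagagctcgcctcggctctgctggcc

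The CRE was present in 1.79% of 32851 RefSeq promoter windows of the same length, the TATA box in 13.6% and the CCAAT box in 37.4%. The GC box (GGGCGG) was in 35.7% of windows and not in this one. Of the 6 long noncoding rows with a window in that table, Miat held 1 GC box and Mirg 1 CCAAT box, while the windows of Malat1, Rian and Snhg11 held none of these 4 motifs. A second Meg3 start in the table held none of them either. These are matches of letters and were not tested as binding sites.

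Malat1 had the highest mean level of any row that was long noncoding by RefSeq biotype. In replicates 1 and 5 of both sides it lay below Peg13, which stood at 420 to 446 CPM there, and below Tug1 (207 to 233 CPM). It also lay below B230217C12Rik, Kantr and Gm20300 there, long noncoding rows singled out after their values were seen. Malat1 lies on chromosome 19 (5795690 to 5802672, minus strand, 6983 exonic bases in GENCODE M21). On the left it stood at 162, 1024, 1306, 1457 and 105 CPM in replicates 1 to 5. On the right it stood at 130, 508, 1766, 1701 and 103 CPM in replicates 1 to 5. Replicates 1 and 5 of both sides were low, right replicate 2 lay between, and the sides overlapped over nearly their whole range. The highest level was 17.2 times the lowest. Over the sides the means were 811 ± 638 CPM (left) and 842 ± 830 CPM (right, SD, n = 5 each).

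Neat1, the neighbour of Malat1 on the same strand (5824708 to 5845478), was scarce. Its levels were 0.320, 2.39, 4.73, 3.96 and 0.361 CPM in left replicates 1 to 5 and 0.238, 2.59, 4.89, 5.46 and 0.177 CPM in right replicates 1 to 5. The lowest value rested on 12 reads (right replicate 5, exact 95% Poisson interval 6.20 to 21.0 reads, counting error only). Per exonic kilobase the mean level of Neat1 was 0.121 CPM, against 118 CPM for Malat1. Neat1 gave 0.00172 to 0.00510 reads per Malat1 read, a 2.97-fold range, and both rows were lowest in the same 4 libraries. The coding genes around them did not share that range. Among the 7 of 10 neighbours averaging 1 CPM or more, 2 had their 4 lowest levels in replicates 1 and 5. Of all gene rows at that level, 23.2% did. Dpf2, a chromatin factor, ranged 1.21-fold and Cdc42ep2 5.19-fold, the widest of the 7.

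Meg3 came next by mean level and carried the same library pattern. In replicates 1 and 5 of both sides and in right replicate 2 it lay below Peg13. In replicates 1 and 5 of both sides it lay below all others of the 12 long noncoding rows with the highest means, except Snhg11. Meg3 lies on chromosome 12 (109541001 to 109571726, plus strand). Left replicates 1 to 5 stood at 74.5, 537, 684, 995 and 63.8 CPM, and right replicates 1 to 5 at 63.8, 289, 911, 950 and 58.8 CPM. Its range was 16.9-fold, its means were 471 ± 402 CPM (left) and 454 ± 445 CPM (right, SD, n = 5 each), and no side stood apart. Malat1 and Meg3 kept close to 1 ratio, with 1.47 (left replicate 4) to 2.18 (left replicate 1) Malat1 reads per Meg3 read.

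Rian, the next transcript of the locus (109603940 to 109661716), varied less. It stood at 21.2, 39.1, 52.4, 54.0 and 18.5 CPM in left replicates 1 to 5 and at 17.4, 26.9, 58.3, 64.1 and 17.7 CPM in right replicates 1 to 5. Its range was 3.68-fold. There were 3.31 to 3.67 Meg3 reads per Rian read in replicates 1 and 5 of both sides and 10.7 to 18.4 in the other 6 libraries, with no overlap. The transcripts of 1 locus were thus not present in 1 fixed proportion. Mirg, the last of them (109729764 to 109749460), was scarce, at 0.489, 3.20, 3.55, 2.89 and 0.361 CPM in left replicates 1 to 5 and 0.194, 0.829, 4.54, 3.48 and 0.250 CPM in right replicates 1 to 5. Its lowest value rested on 13 reads. Reads of Mirg per Meg3 read lay between 0.00287 and 0.00656, with no order by replicate number.

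Rows inside the spans of these hosts showed more of the locus. DQ267101, a small nucleolar RNA row inside Rian, held 435, 1133, 1471, 1745 and 399 reads in left replicates 1 to 5 and 408, 887, 1873, 1697 and 419 in right replicates 1 to 5. It gave 0.346 to 0.389 reads per Rian read in replicates 1 and 5 of both sides and 0.459 to 0.623 in the other 6 libraries. AF357425, another such row, held 1 to 5 reads in replicates 1 and 5 of both sides and 28 to 202 reads in the other 6 libraries. Both rows, like Rtl1, were singled out after their values were seen. The hairpin rows were near empty: Mir1188 reached 78 reads and Mir341 20 reads (both in Rian), Mir377 16 reads and Mir453 10 reads (both in Mirg). In replicates 1 and 5 no hairpin row inside Rian or Mirg had more than 1 read.

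Dlk1 and Rtl1, coding genes of the same locus expressed from the paternal copy, had wider ranges still, while Begain ranged 2.36-fold and Dio3 was near 0. Dlk1, a transmembrane Notch-pathway ligand, stood at 0.0843, 4.52, 15.2, 10.3 and 0.126 CPM in left replicates 1 to 5 and at 0.358, 3.41, 20.8, 4.85 and 0.456 CPM in right replicates 1 to 5. Rtl1, a retrotransposon-derived gene that overlaps Meg3 and Rian, ranged from 2 reads (left replicate 1) to 295 (right replicate 3), and its reads cannot be told from theirs where they overlap, as no source used here gives the strand setting. Flanking genes with more reads varied less: Ppp2r5c ranged 1.41-fold, Wars 1.33-fold, Yy1 1.45-fold and Evl 1.54-fold. Flanking genes with few reads ranged further, Wdr25 1.87-fold, Slc25a29 2.04-fold, Degs2 3.44-fold and Slc25a47 11.1-fold, the last at a mean of 0.308 CPM. Of 14 tested genes of that list, members included, 0 passed the test between the sides (background 0% of 16250 genes), with a median log2 fold change of -0.01.

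**Figure D1:**
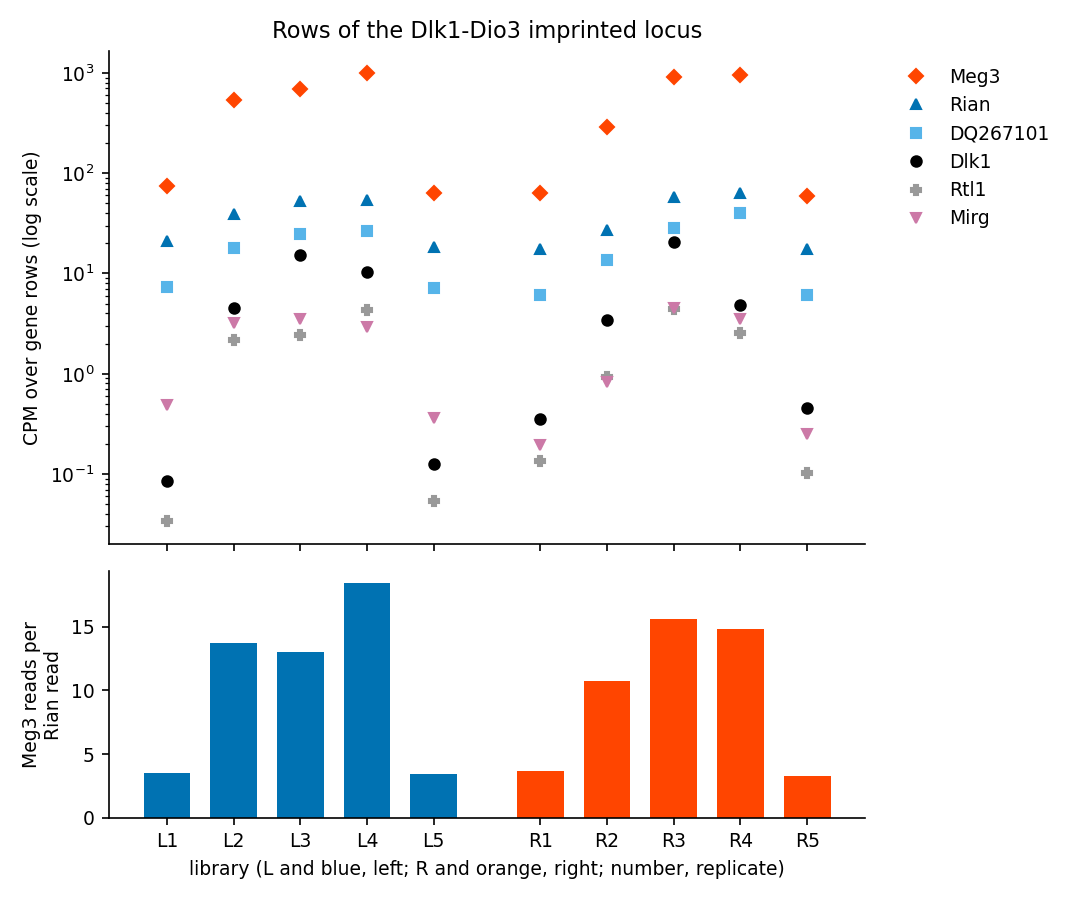
Levels of 6 rows of the Dlk1-Dio3 locus in each library (top, CPM, log axis) and Meg3 reads per Rian read (bottom); L and R are left and right, numbers are replicates, and each point or bar is 1 library. Meg3 spans 58.8 to 995 CPM while Rian spans 17.4 to 64.1 CPM, so the bars are 3.31 to 3.67 in replicates 1 and 5 and 10.7 to 18.4 in the others.

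Miat and Snhg11 had narrower ranges than Malat1, Neat1, Meg3 and Mirg and wider ones than Rian. Miat (chromosome 5, 112213228 to 112229395, minus strand) stood at 3.74, 15.1, 19.5, 21.5 and 3.16 CPM in left replicates 1 to 5 and at 3.46, 9.33, 24.1, 27.5 and 3.28 CPM in right replicates 1 to 5, an 8.72-fold range. Snhg11 (chromosome 2, 158375638 to 158386145, plus strand) stood at 51.2, 205, 245, 331 and 42.6 CPM in left replicates 1 to 5 and at 52.1, 115, 320, 310 and 48.2 CPM in right replicates 1 to 5, a 7.77-fold range. RefSeq lists Snhg11 as a long noncoding RNA and GENCODE M21 as protein coding. Reads of Snhg11 per Meg3 read were 0.667 to 0.820 in replicates 1 and 5 and 0.326 to 0.398 in the other 6 libraries, and those of Miat 0.0495 to 0.0559 and 0.0216 to 0.0323. Neither range overlapped, so relative to Meg3 both RNAs made up more of the libraries poor in glial markers. Per exonic kilobase the mean levels ran from Malat1 (118 CPM) over Meg3 (25.6), Snhg11 (20.2), Rian (2.03), Miat (1.41) and Mirg (0.271) to Neat1 (0.121). The spans over libraries were 14.7 to 253 for Malat1, 3.25 to 55.0 for Meg3, 4.99 to 38.8 for Snhg11, 0.955 to 3.52 for Rian, 0.340 to 2.96 for Miat, 0.0266 to 0.623 for Mirg and 0.00850 to 0.263 for Neat1, all in CPM per exonic kilobase. Neighbours in this order overlapped across libraries, except Snhg11 and Rian. The order is that of the means, and within replicates 1 and 5 of both sides Snhg11 lay above Meg3.

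**Figure D2:**
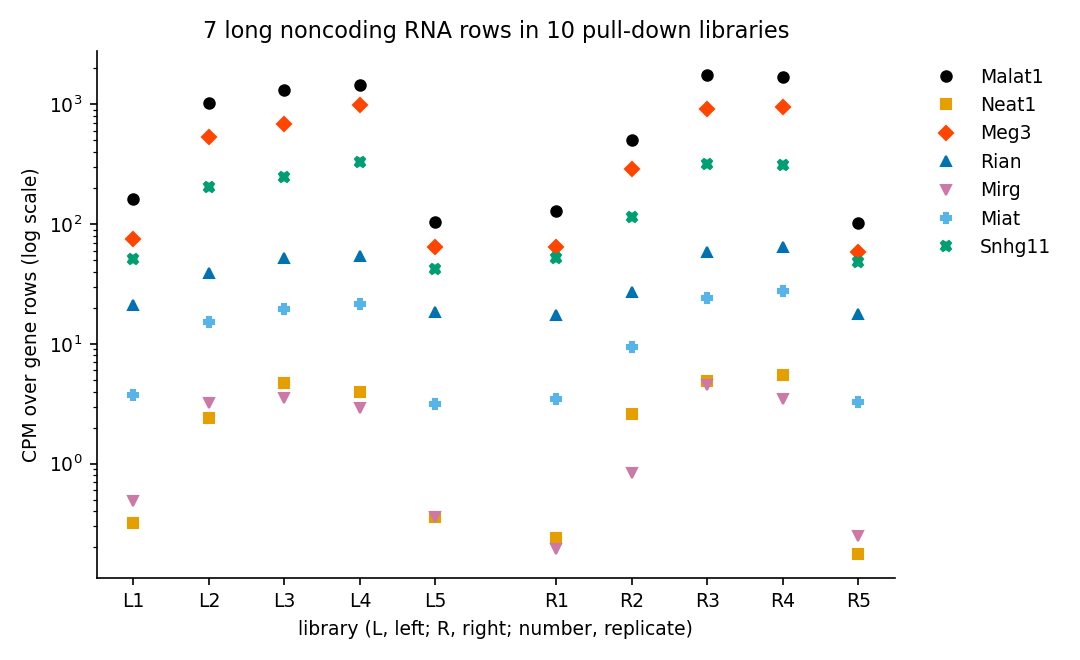
Level of each of the 7 long noncoding rows (CPM over gene rows, log axis) in left (L) and right (R) replicates 1 to 5; each point is 1 library. All 7 rows have their 4 lowest values in L1, L5, R1 and R5, and R2 lies lowest of the other 6 libraries except for Neat1, whose value of 2.59 CPM there is above 2.39 CPM in L2.

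All 7 long noncoding rows had their 4 lowest levels in replicates 1 and 5 of both sides. Among all 13274 gene rows averaging 1 CPM or more the same held for 23.2%, and 27.1% had their 4 highest levels there. Long noncoding RNA as a class did not share the direction of these 7: of 397 such rows by RefSeq biotype, 57 (14.4%, the 7 included) had their 4 lowest levels in those libraries and 92 (23.2%) their 4 highest. The median ratio of highest to lowest level was 2.30 over the 397 rows and 1.84 over 12306 protein-coding rows. Because the 7 were picked with their pattern known, these shares place them and do not test them.

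Some other long noncoding rows with many reads varied little. Peg13, an imprinted brain transcript, ranged 1.39-fold around a mean of 424 CPM. 1700020I14Rik ranged 1.35-fold. Tug1, a broadly expressed lncRNA, stood at 151 to 233 CPM (left) and 132 to 214 CPM (right). Kcnq1ot1, a nuclear antisense RNA of the imprinted Kcnq1 domain, went the way of Malat1 and further. It stood at 1.60, 35.9, 46.7, 56.5 and 1.41 CPM in left replicates 1 to 5 and at 2.07, 16.6, 55.0, 40.2 and 1.72 CPM in right replicates 1 to 5, a 40.1-fold range. Of the 20 other listed long noncoding rows averaging 1 CPM or more, 7 had their 4 lowest and 4 their 4 highest levels in replicates 1 and 5. The shares over all gene rows at that level were 23.2% and 27.1%. This list was made by name. D430019H16Rik, counted among the lowest, and 6330403K07Rik, counted among the highest, were not long noncoding by the RefSeq biotype used here.

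**Figure D3:**
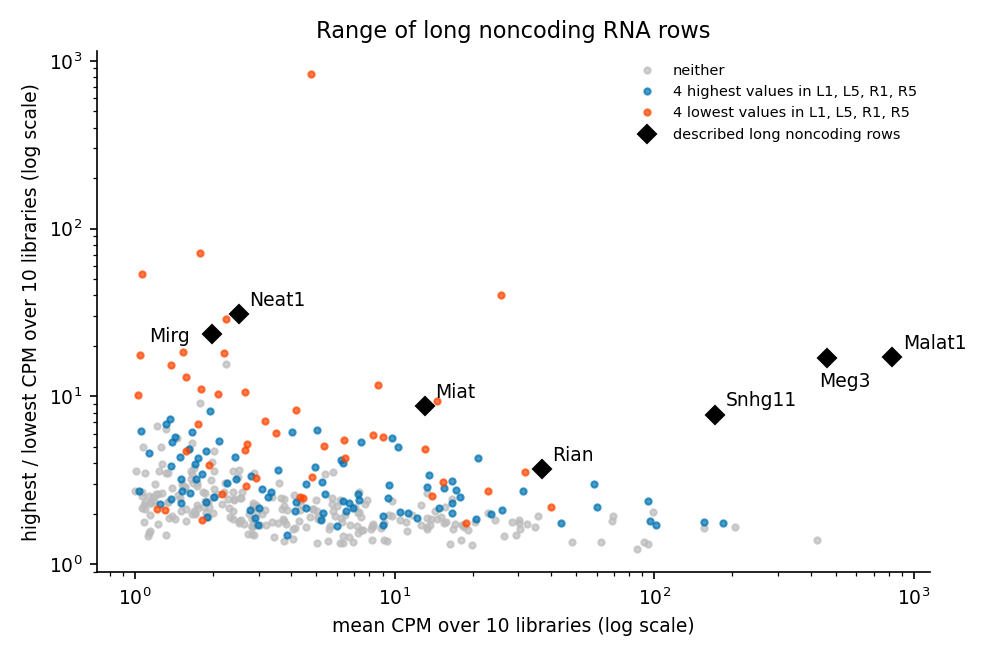
Mean level (x, CPM, log axis) against the ratio of the highest to the lowest level over 10 libraries (y, log axis) for 392 long noncoding RNA rows averaging 1 CPM or more and a read in every library; diamonds are the 7 rows described and colours mark rows whose 4 lowest or 4 highest values fall in replicates 1 and 5. Malat1, Meg3 and Snhg11 combine high level with wide range, while Peg13, with a mean of 424 CPM, has a ratio of 1.39.

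Other host genes of small nucleolar RNA varied in both directions. Of 12 listed hosts, a list that does not hold Snhg11, averaging 1 CPM or more, 7 had their 4 highest levels in replicates 1 and 5 and 2, Snhg14 and Rian, their 4 lowest. Over all gene rows at that level the shares were 27.1% (highest) and 23.2% (lowest). Gas5, which begins with the terminal oligopyrimidine tract that ribosomal protein mRNAs also carry, stood at 41.2 and 42.0 CPM in left replicates 1 and 5 and at 34.8, 20.3 and 15.5 CPM in left replicates 2 to 4. Snhg1 ranged 2.83-fold and was highest in right replicate 1 (23.3 CPM). Snhg14, the long transcript that runs antisense to Ube3a, was at 16.8 to 20.5 CPM in the 4 libraries of replicates 1 and 5 and reached 59.2 CPM in left replicate 4. Ribosomal protein mRNAs shared the direction of Gas5: of 69 averaging 1 CPM or more, 51 had their 4 highest levels in replicates 1 and 5 and 0 their 4 lowest.

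As a share of all gene reads the 7 rows were small and uneven. Rows that were long noncoding by RefSeq biotype together took 0.513% (right replicate 5) to 0.731% (left replicate 4) of gene reads. Of that, the 7 rows made up 4.51% to 5.66% in replicates 1 and 5 of both sides, 15.8% in right replicate 2 and 27.3% to 43.6% in the other 5 libraries. All other long noncoding rows summed to 4001 CPM (right replicate 3) to 5230 CPM (left replicate 1). This sum was 4867 to 5230 CPM in left replicates 1, 2 and 5 and right replicates 1, 2 and 5, and 4001 to 4448 CPM in replicates 3 and 4 of both sides, where the 7 rows took their largest shares. Rows with no RefSeq match, Rn45s left out, held 0.900% (right replicate 5) to 1.03% (left replicate 1) of gene reads. Any long noncoding RNA among them is missing from these sums and shares.

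Glial genes were among those most like Malat1 and Meg3. Over the 10 libraries, among 8956 genes averaging 10 CPM or more, the genes most like Malat1 by Pearson r of log2 CPM were Aspa, an enzyme of oligodendrocytes, Map3k5, a stress kinase, and Sox8, a glial transcription factor (r = 0.998, 0.997 and 0.997). For Meg3 they were the astrocytic glutamate transporters Slc1a2 and Slc1a3 and the phosphatase Ptpn3 (r = 0.9996, 0.999 and 0.999). The least alike were Dach1, Hagh and Otud5 for Malat1 (r = -0.991 each) and Rasgef1b, Tcea2 and Psmf1 for Meg3 (r = -0.995, -0.994 and -0.994). These libraries share sides, lanes and a strong common axis of makeup, so r is a description.

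Sizes differed even where the order was shared. Slc1a2 ranged from 33.1 to 1097 CPM, 33.1-fold against 16.9-fold for Meg3. There were 1.77 to 1.94 Meg3 reads per Slc1a2 read in replicates 1 and 5 and 0.907 to 1.34 in the other 6 libraries. Reads outside genes made up 13.6% to 14.96% of uniquely aligned reads in replicates 1 and 5 and 15.1% to 18.9% in the others. Of the 9 thalamic markers averaging 1 CPM or more, 6 had their 4 lowest levels in replicates 1 and 5 and 1, Calb2, its 4 highest. Rora, a nuclear receptor of thalamic neurons, was at 137 to 168 CPM in the 4 libraries of replicates 1 and 5, against 371 to 841 CPM elsewhere. Habenular markers moved against them, with 10 of 12 at their 4 highest levels in replicates 1 and 5. Over all gene rows averaging 1 CPM or more the shares were 23.2% (lowest) and 27.1% (highest). Fewer cells of a type and less RNA per cell cannot be told apart here, no unpurified input was used here, and the part of glial, thalamic or nuclear RNA in the levels of the 7 rows was not tested.

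The ribosomal RNA precursor row did not follow this pattern. Rn45s was the most abundant row of all. It took 7.16%, 9.79%, 6.66%, 0.891% and 10.1% of gene reads in left replicates 1 to 5 and 8.40%, 7.51%, 6.27%, 10.2% and 10.1% in right replicates 1 to 5. Left replicate 4 stood far below the rest, and the other 9 libraries lay within 62737 to 101625 CPM, with libraries poor and rich in glial markers intermixed. Right replicate 4, rich in glial markers, was the highest and left replicate 4, also rich in them, the lowest. The means were 69195 ± 37005 CPM (left) and 84944 ± 16863 CPM (right, SD, n = 5 each). Even right replicates 1 and 5, the closest pair in the chi-square comparison of libraries, which left Rn45s out, differed, at 84005 and 101296 CPM.

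Mir6236 was the sixth row by mean level and was lowest in the same library as Rn45s. It stood at 4062, 3928, 1773, 169 and 5719 CPM in left replicates 1 to 5 and at 3341, 2741, 2115, 3092 and 3763 CPM in right replicates 1 to 5. Replicates 1 and 5 of both sides lay at 3341 to 5719 CPM and the other libraries at 169 to 3928 CPM, so the ranges overlapped. Mir6236 held nearly all reads of microRNA rows: 169 of 190 CPM in left replicate 4 and 5719 of 5733 CPM in left replicate 5. Of 1113 microRNA rows, 623 had no read in any library. Rn45s gave 17.6 reads per Mir6236 read in left replicate 1 and 52.9 in left replicate 4, and no more than 37.6 in any other library, so the proportion of the rows was not fixed. Whether Mir6236 reads come from the microRNA cannot be told from counts alone. Alignments that were not unique, which the authors' counting leaves out, were also fewest in left replicate 4, at 25.3 per 100 uniquely aligned reads. Replicates 1 and 5 of both sides held the highest values, 70.4 to 76.7, and the remaining libraries lay at 47.1 to 61.1.

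**Figure D4:**
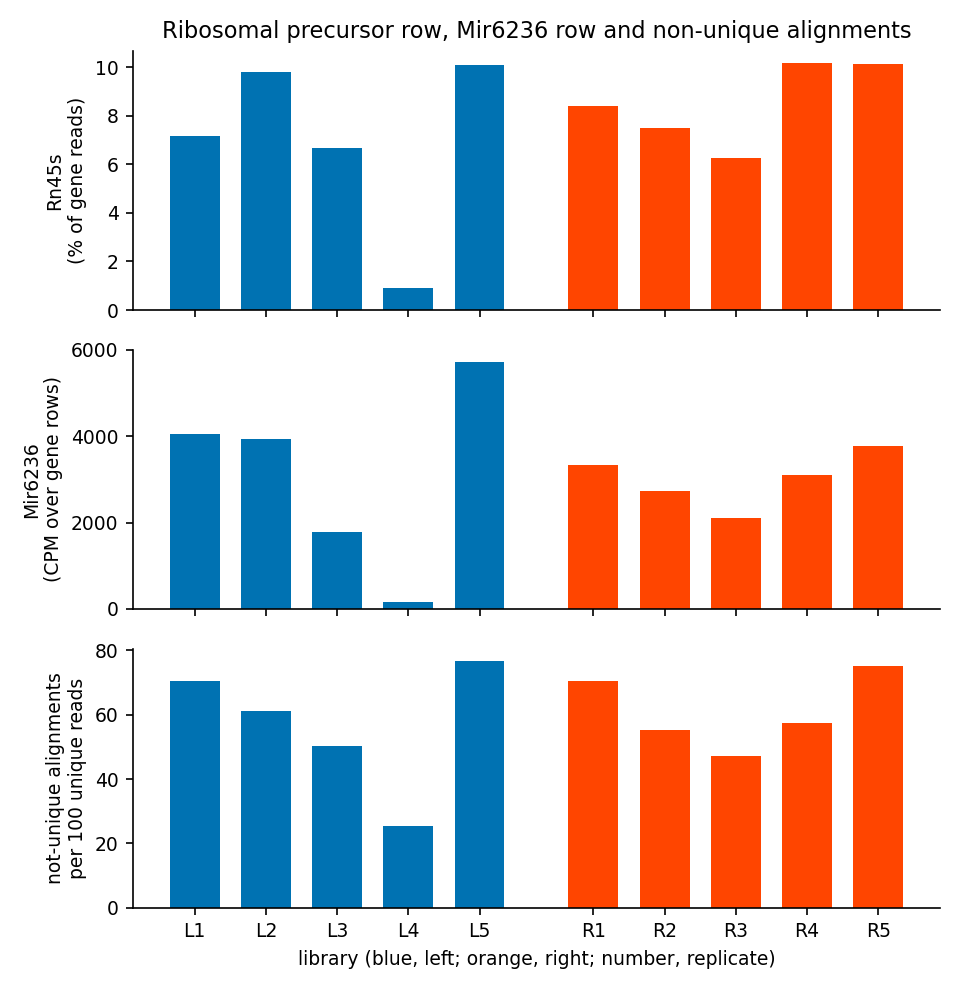
Share of gene reads in Rn45s (top, percent), level of Mir6236 (middle, CPM) and not-unique alignments per 100 uniquely aligned reads (bottom); each bar is 1 library, blue for left and orange for right. Left replicate 4 is lowest in all 3, at 0.891%, 169 CPM and 25.3.

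Rows closest to Rn45s over the 10 libraries, singled out after their values were seen, were Lars2, the mitochondrial leucyl-tRNA synthetase (r = 0.991), and AK144265 (r = 0.981), again as a description. Lars2 stood at 138 CPM in left replicate 4, against 926 to 1859 CPM elsewhere, and AK144265 at 14.6 against 237 to 619 CPM. The counts of ribosomal RNA depend on how many copies the genome build holds, because reads with several equal matches are not counted. The rows of small structural RNA that were listed by name were almost empty. Of these 123 rows for small nucleolar, Cajal body and polymerase III RNAs, 0 had a mean of 1 CPM. Together they summed to 2.76 to 4.97 CPM per library. Snord104 had the highest mean among them (0.538 CPM). The list leaves out small nucleolar rows under other names, such as DQ267101 and AF357425 inside Rian. By RefSeq biotype, 2 of 109 small nucleolar RNA rows averaged 1 CPM or more. Genes of the mitochondrial genome had no row under the symbols searched and were not analysed here.

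Between the sides no row differed beyond the spread of the libraries. The edgeR quasi-likelihood test called 0 of the 9 rows at an adjusted p under 0.05, and 0% of all 16250 genes tested, with 90 genes (0.554%) at an unadjusted p under 0.05. DESeq2 and limma-voom also called 0 genes, with 273 and 109 at an unadjusted p under 0.05. With lane as a block over replicates 2 to 5, edgeR called 0 genes, with 133 at an unadjusted p under 0.05. The largest fold change of the 9 was that of Rn45s, at -0.32 (left minus right, log2, 95% interval -1.42 to 0.78, adjusted p = 0.99999 in edgeR). Without left replicate 4 it was -0.03. The intervals were wide: -2.22 to 2.0 for Malat1, -2.16 to 2.15 for Meg3, -1.08 to 1.01 for Rian and -1.40 to 1.48 for Mir6236. These intervals come from the fit without blocks. With lane as a block over replicates 2 to 5 the fold change was 0.074 for Malat1 (-0.37 to 0.52) and 0.15 for Meg3 (-0.23 to 0.53), with narrower intervals, while that of Mir6236 was wider (-3.97 to 2.85). The median log2 fold change was -0.04 over the 9 rows. In edgeR 0 members of the lists of long noncoding, host, small structural, imprinted, speckle, housekeeping or ribosomal protein genes were called.

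**Figure D5:**
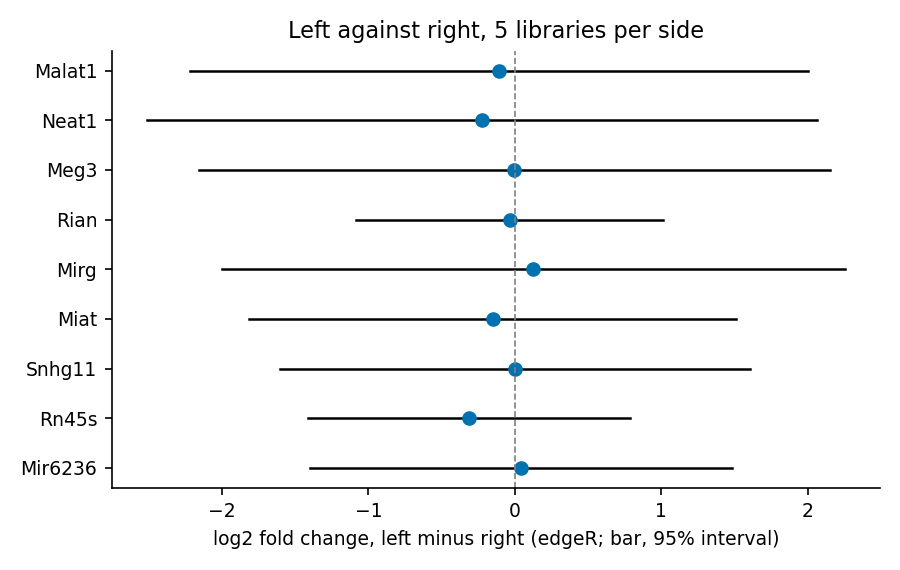
Log2 fold change, left minus right, of the 9 rows (points) with 95% intervals (bars) from the edgeR fit over all genes, 5 libraries per side. All 9 intervals include 0, and that of Rian, from -1.08 to 1.01, is the narrowest.

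Imprinted coding genes and proteins of nuclear bodies complete the picture of genes related to the 9 rows. Of 30 imprinted coding genes averaging 1 CPM or more, 14 had their 4 lowest and 2 their 4 highest levels in replicates 1 and 5. The shares over all gene rows at that level were 23.2% and 27.1%. Peg3, a zinc finger gene, stood at 494 to 522 CPM there, against 824 to 1896 CPM elsewhere. Nnat, a proteolipid gene inside an intron of Blcap, ranged 3.68-fold and was lowest in left replicate 4 (406 CPM), while Gnas and Ube3a ranged 1.33-fold and 1.18-fold. Of 19 paraspeckle and speckle protein genes, 3 had their 4 lowest and 6 their 4 highest levels there (all gene rows, again 23.2% and 27.1%). Srrm2, a speckle scaffold, ranged from 842 to 2325 CPM, and Pspc1, a paraspeckle protein, only 1.14-fold. Among 20 translated housekeeping genes the median range was 1.76-fold, with Eef1a1 at 303 to 388 CPM.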

How the data were processed

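Each library had 1 deposited table of whole-number read counts by gene symbol, without normalisation by the authors. STAR 2.0.0e and HTSeq are the tools, and mm10 the build, per the submitters' processing notes. The annotation, the strand setting and any filter are not stated in the labels. Of 32537 rows, 6 name no gene (5 totals from HTSeq and 1 called unknown) and were left out. CPM is the count over the sum of gene rows, times 1e6. Sides were compared with edgeR 4.0.16 (R 4.3.3; TMM, filterByExpr with a minimum count of 10, robust quasi-likelihood F test, two-sided, Benjamini-Hochberg threshold 0.05), side as the only term; standard errors and 95% intervals come from the F statistic. Log2 CPM used for r has a prior count of 2. DESeq2 1.42.0 and limma 3.58.1 were alternatives, beside other scalings, filters, blocks and left-out libraries. The test was tried on simulated counts.

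The members, lists, marker genes, alternatives and the rule for named genes were chosen with earlier results of these data known. The rule took all 9 rows, of each list the 4 most abundant members and those of widest and narrowest range among genes averaging 1 CPM or more, and the 3 genes most and least like Malat1 and Meg3; genes outside it are marked or belong to a list counted in the same sentence. Positions and exonic lengths are from GENCODE M21 (GRCm38), in which Rn45s had no match; biotypes are from RefSeq (GRCm38.p6), which matched 24143 of 32531 gene rows. Replicate numbers are those of the labels. The values of 1 named gene are not reported here.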

Additional observations from a re-analysis of the deposited data

How the results depend on the processing

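The count of genes called between the sides was 0 under all 21 alternatives, which include DESeq2, limma-voom and 10 edgeR fits that left out 1 library each. None of the 185 recomputed log2 fold changes (left minus right) of the 9 rows was called, with a smallest adjusted p of 0.9996, but 62 changed sign. Leaving out 1 library in turn gave -0.42 to 0.37 for Malat1, -0.63 to 0.25 for Neat1, -0.46 to 0.50 for Meg3, -0.22 to 0.29 for Rian and -0.16 to 0.79 for Mirg. It gave -0.42 to 0.32 for Miat, -0.35 to 0.38 for Snhg11, -0.50 to -0.03 for Rn45s and -0.30 to 0.35 for Mir6236. With limma-voom the sign changed for Malat1 (0.12), Neat1 (0.35), Meg3 (0.16), Rian (0.10), Miat (0.090) and Mir6236 (-0.63). With the replicate number as a block it changed for Malat1 (0.11), Meg3 (0.15), Rian (0.071) and Mir6236 (-0.36). That replicate block called 0 genes, with 297 at an unadjusted p under 0.05. Its 95% intervals were -0.30 to 0.53 for Malat1 and -0.20 to 0.50 for Meg3. Deviations of same-numbered libraries correlated at 0.096 for number 2 and at 0.715 to 0.873 for the others, so the numbers were not taken to pair the libraries, and left replicate 2 correlated best with right replicate 3. With lane as a block over replicates 2 to 5 the values were 0.074 for Malat1, 0.15 for Meg3, 0.034 for Rian and -0.56 for Mir6236. Without scaling factors Meg3 was at 0.051 and Rian at 0.0059, and without the filter on low counts Meg3 was at 0.022. With Rn45s and Mir6236 out of the library size Meg3 was at 0.016. Without replicates 1 and 5 Meg3 was at 0.013 and Mir6236 at -0.46, and with these summed per side at 0.017 and -0.11. Snhg11 was at -0.0052 with RLE size factors, -0.0025 with only genes averaging 10 CPM or more and -0.0027 with DESeq2. The cause of these changes of sign was not tested. The 140 recomputed mean CPM values moved by less than 1 SD. TMM-scaled CPM was added after the data were seen. Depth limits Neat1 and Mirg, whose lowest values rest on 12 and 13 reads.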
